A study of Mus musculus with 2207 samples.

Results

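The genes examined here are the 64 rows of both expression tables whose symbol is Zfp9 followed by 2 digits, out of 52636 genes, and they were picked by name alone, with no measured value. They were measured in 2207 single nuclei of mouse brain cortex by RamDA-seq, a full-length total RNA method, in 6 pools. The pools labelled WT and Ehmt1Δ/+ of the 96-well plates (730 nuclei, of which 36 and 32 were labelled microglia and 73 and 71 oligodendrocytes) carried no transgene. The 384-well pools labelled WT, Ehmt1Δ/+, iTg and Ehmt1Δ/+; iTg (1477 nuclei, of which 16, 19, 20 and 23 were microglia and 69, 46, 71 and 67 oligodendrocytes) carry an inducible *Ehmt1* transgene (iTg) by their genotype labels, which give *CamKII*-CreER, a tamoxifen-activated Cre of forebrain neurons that switches it on, for the pools named iTg alone. The study's text instead places all 4 of these groups on *CamKII*-CreER and the transgene in the iTg groups, and which description holds for WT and Ehmt1Δ/+ was not settled here. The other nuclei were labelled neurons. Every pool came from 3 C57BL/6 mice of 14 weeks of age. All mice had received 2 doses of tamoxifen (100 mg/kg), which the labels place at 3 weeks of age and the methods space 1 week apart. Since the mouse of a nucleus is not labelled, a pool counted as 1 sample, and glia of the iTg pools carried a transgene whose Cre driver is neuronal.

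*Ehmt1* encodes GLP, which together with G9a (*Ehmt2*) writes mono- and dimethylation of histone H3 at lysine 9. Most Zfp9 genes encode proteins with a KRAB domain and a row of zinc fingers. A zinc finger is a short fold held by cysteines and histidines around a zinc ion that reads a few bases of DNA. The KRAB domain binds KAP1 (*Trim28*), which brings SETDB1, a writer of H3K9 trimethylation, and heterochromatin protein 1 to the bound site, above all at retroelements. These genes arose by tandem duplication, so many have near-identical neighbours, and their own gene bodies are known to carry H3K9 methylation.

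The 64 genes lay on 12 chromosomes of mm10. Of these, 45 fell into 6 groups of neighbours less than 1 Mb apart, and 19 stood alone. The largest groups held 16 genes on chromosome 4 (145510759 to 147848366), 10 on chromosome 2 (175372436 to 178078476) and 10 on chromosome 17 (21567008 to 22867134). All but *Zfp939*, annotated as a transcribed pseudogene, were protein coding. By pattern search in the translated coding parts, 57 of the 64 held 5 or more zinc fingers (median 11, up to 21 in *Zfp974*), and 57 held a residue string typical of the KRAB domain.

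How alike the copies are decides which reads can be told apart, so 1 finger-and-linker unit of 84 bases is shown for each gene of 2 sets of copies and for *Zfp951*, to which the genotype results return. The sequences are from GENCODE M21 transcripts, 5′ to 3′ on the coding strand, and capitals mark the codons of the cysteines and histidines that hold the zinc ion. In the chromosome 2 group the unit was identical in 4 genes, while that of *Zfp973* differed from it by 1 base and that of *Zfp970* by 3. The unit of *Zfp973* was also found in *Zfp965*, *Gm14288* and *Gm14440*.
*Zfp966* (chr2:175921196-175921279, minus strand): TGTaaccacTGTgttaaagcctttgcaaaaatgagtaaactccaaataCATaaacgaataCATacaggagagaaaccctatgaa
*Zfp967* (chr2:176530825-176530908, plus strand): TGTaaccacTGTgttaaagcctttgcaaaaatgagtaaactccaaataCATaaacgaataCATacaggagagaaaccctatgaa
*Zfp968* (chr2:175382283-175382366, plus strand): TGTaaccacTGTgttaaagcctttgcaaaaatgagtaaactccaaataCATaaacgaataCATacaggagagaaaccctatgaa
*Zfp969* (chr2:175693794-175693877, minus strand): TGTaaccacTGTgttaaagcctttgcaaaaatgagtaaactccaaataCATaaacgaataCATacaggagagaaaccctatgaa
*Zfp973* (chr2:176680371-176680454, plus strand): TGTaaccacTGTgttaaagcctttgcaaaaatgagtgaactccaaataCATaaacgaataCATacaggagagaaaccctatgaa
*Zfp970* (chr2:177475115-177475198, plus strand): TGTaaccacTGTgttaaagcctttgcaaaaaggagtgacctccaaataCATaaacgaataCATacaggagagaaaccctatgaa

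In the chromosome 4 group, the unit of *Zfp993* was identical in *Zfp991* and in the pseudogene *Znf41-ps*, and that of *Zfp992* differed by 1 base.
*Zfp993* (chr4:146657944-146658027, plus strand): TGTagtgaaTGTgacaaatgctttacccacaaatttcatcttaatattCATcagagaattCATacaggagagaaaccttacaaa
*Zfp991* (chr4:147178891-147178974, plus strand): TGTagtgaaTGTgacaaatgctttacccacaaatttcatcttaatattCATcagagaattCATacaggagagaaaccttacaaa
*Zfp992* (chr4:146466547-146466630, plus strand): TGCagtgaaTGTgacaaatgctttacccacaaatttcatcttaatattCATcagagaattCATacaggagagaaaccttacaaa

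The unit of *Zfp951*, a gene without near neighbours on chromosome 5 (104813169 to 104860070), was found in no other annotated transcript.
*Zfp951* (chr5:104815084-104815167, minus strand): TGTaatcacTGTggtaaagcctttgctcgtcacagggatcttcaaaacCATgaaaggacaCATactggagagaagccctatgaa

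Values were reads scaled by gene length and by the reads of the nucleus (RPKM). Many stood for fractions of reads, taken here as reads that match several places and had been divided among them. The study's methods name default counting settings and do not describe such a division. The reads behind each value could be recovered. Over all genes, 69.2% of the values above 0 were whole reads within 0.01 read in 96-well and 73.4% in 384-well nuclei. For the Zfp9 genes the share was 38.3% and 49.7%, over 27924 and 40463 values. By medians, the share was lower where a gene shares more sequence with others, measured as the part of its 75-base transcript windows found in another gene. Among the 59 genes above 0 in at least 50 nuclei, the median share of whole values was 71.2% for the 32 genes with under 10% of windows shared, 17.8% for 14 genes with 10% to under 50%, and 5.47% for 13 genes with 50% or more. Lowest were *Zfp987* (1.52%), *Zfp966* (4.15%), *Zfp973* (4.93%), *Zfp967* (4.95%) and *Zfp969* (5.27%). In these 5, between 76% and 100% of the windows were shared, so each value is mostly an apportioned part of a group's reads and single genes of the group cannot be told apart. *Zfp948*, *Zfp938*, *Zfp930* and *Zfp958* shared no window, and 97.9% to 99.1% of their values were whole. *Zfp951* also shared no window, yet 19% of its values were whole. It was not alone: the 32 genes with under 10% of windows shared ran from 8% to 99.1%. Low among them were also *Zfp985* (8%), *Zfp936* (8.11%) and *Zfp947* (12.8%). Where else the reads of these genes matched was not tested. *Zfp935* lies wholly within exons of *Gm49359*, and 40.8% of the exon bases of *Zfp963* overlap *Gm20422*, so values of both are uncertain.

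**Figure D1:**
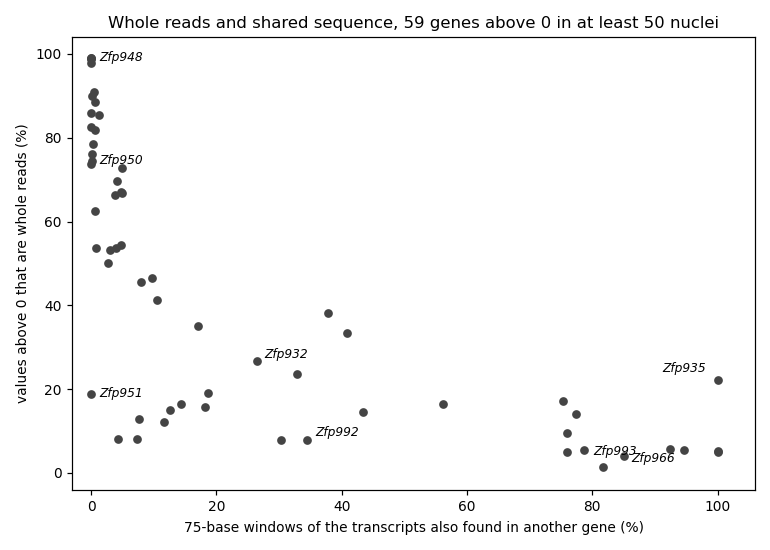
Share of values above 0 that are whole reads (vertical axis, %) against the share of 75-base transcript windows found in another gene (horizontal axis, %), 1 point for each of 59 genes above 0 in at least 50 nuclei. Genes without shared windows reach 99.1%, those with 50% or more lie at or under 22.3%, and *Zfp951* lies at 19% with no shared window.

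In neurons, 42 of the 64 genes had a mean of at least 1 RPKM over the 6 pools (65.6%), against 82.1% of the other Zfp genes and 40.6% of all genes. The highest was *Zfp956* on chromosome 6 (47953390 to 47965300), at 11.7 and 12.7 RPKM in the 96-well pools labelled WT and Ehmt1Δ/+, and at 16.9, 15.7, 16 and 13.7 RPKM in the 384-well pools labelled WT, Ehmt1Δ/+, iTg and Ehmt1Δ/+; iTg. Its mean was 14.5 ± 2.07 RPKM (SD, n = 6 pools). *Zfp950* on chromosome 19 (61053840 to 61140840) had a mean of 13 ± 8.61 RPKM, with 22.3 and 25.3 RPKM in the 96-well pools and 5.87 to 11.4 RPKM in the 384-well pools. The plate formats did not overlap for *Zfp950*, nor for *Zfp932*, which was at 15 and 16.2 RPKM in the 96-well and at 2.83 to 5.53 RPKM in the 384-well pools.

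Next in neurons came *Zfp983* (8.88 ± 1.95 RPKM), *Zfp948* (8.54 ± 1.89), *Zfp949* (7.83 ± 1.20), *Zfp932* (7.65 ± 6.24), *Zfp939* (7.34 ± 0.923), *Zfp941* (6.22 ± 1.51), *Zfp933* (6.09 ± 3.33) and *Zfp961* (5.61 ± 1.5), each the mean ± SD of 6 pools. From *Zfp956* to *Zfp961*, neighbours in this order differed by less than the larger of their SDs. At the other end, 11 genes were under 0.1 RPKM, and 10 of them belong to the chromosome 4 group. The 6 other genes of that group ran up to 6.09 RPKM (*Zfp933*). The chromosome 2 group lay between 1.10 and 4.15 RPKM and the chromosome 17 group between 0.210 and 8.88 RPKM.

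**Figure D2:**
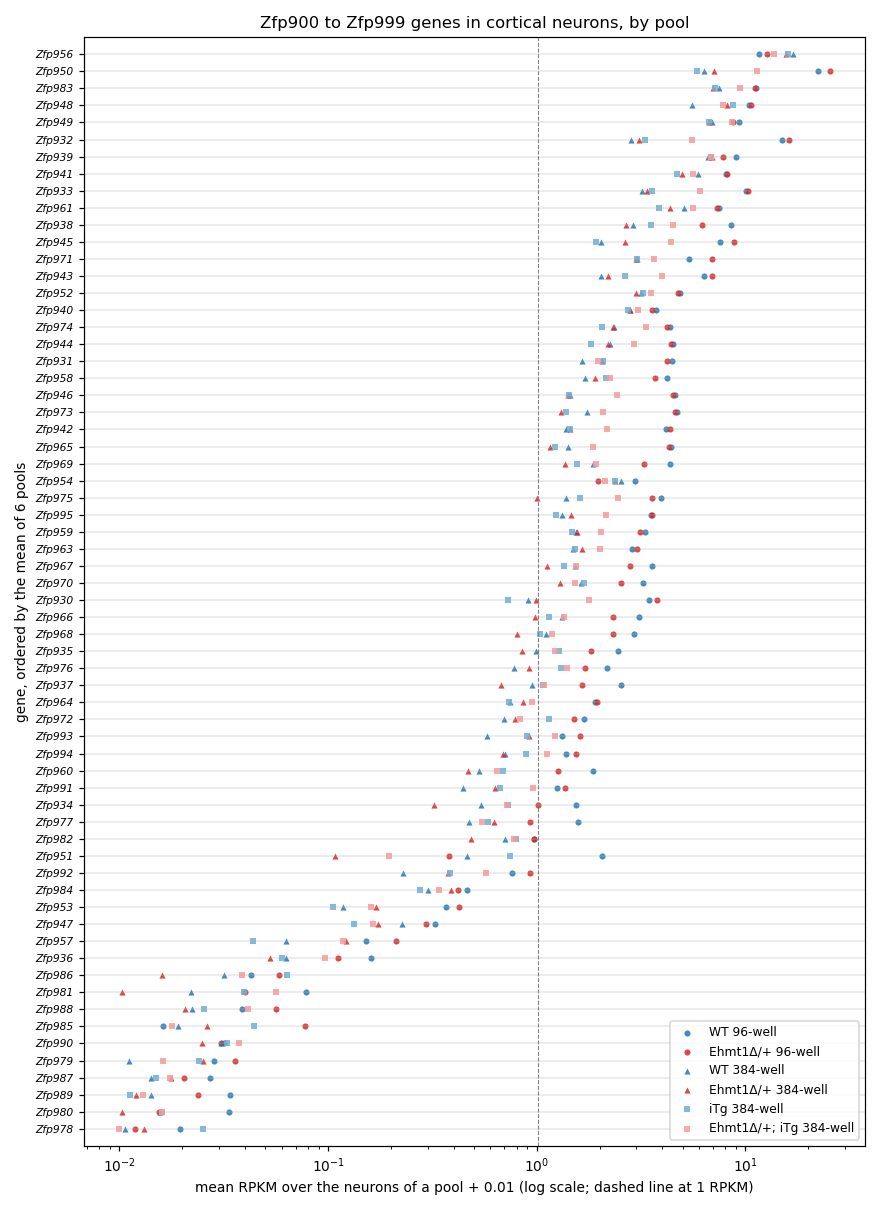
Mean RPKM over the neurons of a pool, with 0.01 added, on a log axis, for the 64 genes ordered by their mean over 6 pools; colours and shapes mark the pools. *Zfp956* is the highest at 14.5 RPKM and 11 genes lie under 0.1 RPKM; for most genes the circles of the 96-well pools lie to the right of the 384-well pools.

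Detection was taken as the share of nuclei above 0, and its relation to the levels was not tested. In neurons, 41 of the 64 genes were above 0 in at least 50% of nuclei on average over the pools, and 31 with a count of at least 1 read. The median read total of neurons was 323273 to 397880 reads in each pool, against 39940 to 54877 reads for glia of the 384-well plates. With all nuclei thinned to 298762 reads (96-well) or 48585 reads (384-well), 17 genes were above 0 in at least 50% of neurons. These detection counts were not made over all genes. *Zfp950* was above 0 in 99.1% of neurons (93.6% thinned) and *Zfp956* in 93.9% (81.9% thinned). *Zfp966*, one of the chromosome 2 copies, was above 0 in 93% of neurons, but with at least 1 read in 67.1%.

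Excitatory neurons, with more *Slc17a7* (a vesicular glutamate transporter gene) than *Gad1* (a GABA synthesis gene), made up 75.5% and 83% of neurons in the 96-well pools labelled WT and Ehmt1Δ/+, and 73.7%, 82.7%, 80% and 82.1% in the 384-well pools labelled WT, Ehmt1Δ/+, iTg and Ehmt1Δ/+; iTg. Inhibitory neurons, with more *Gad1*, made up 24.5%, 16.2%, 25.6%, 17%, 19.3% and 17.9%. None of 53 Zfp9 genes compared was at least 2-fold apart between the classes with 6 of 6 pools one way (background 7.2% of genes higher and 6.3% lower in excitatory neurons). Of the genes with 6 of 6 pools one way, the widest difference in each direction was that of *Zfp995*, at 2.44 RPKM in excitatory and 1.33 RPKM in inhibitory neurons (log2 ratio 0.98 ± 0.54, SD, n = 6), and that of *Zfp941*, at 5.50 and 9.0 RPKM (log2 ratio -0.70 ± 0.16). Classes and values come from the same nuclei and no test was made.

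The cell type labels were set by the study from clusters of the same RNA, so neurons and glia were compared as a description, within each pool. *Csf1r*, a microglial receptor gene, was at 801 to 960 RPKM in microglia and at most 2.08 RPKM in neurons, and *Mog*, a myelin gene, at 277.7 to 348.3 RPKM in oligodendrocytes and at most 1.08 RPKM in the other labels. Neuron marker genes were also read in the glia, at levels that differed between pools. The summed level of 4 neuron markers was 152.97 to 257.2 RPKM in neurons. In microglia and oligodendrocytes it was 64 and 52.8 RPKM in the 96-well pool labelled WT, 14.6 and 12.6 RPKM in that labelled Ehmt1Δ/+, and 1.63 to 10.3 RPKM in the 384-well pools. *Sst*, an inhibitory neuron gene, was at 32.6 RPKM in microglia of the 384-well pool labelled Ehmt1Δ/+ and at 34.4 RPKM in its neurons. *Pdgfra*, a gene of oligodendrocyte precursors, was at 2.65 RPKM in neurons of the 96-well pool labelled Ehmt1Δ/+ and at most 0.0756 RPKM in those of the other pools. The part of these in the Zfp9 values was not tested. A gene was taken as different with 6 of 6 pools one way and a mean difference of at least 2-fold in RPKM + 0.1. By this rule, 10 of 53 genes were higher in neurons than in microglia (18.9%, background 35.3%) and 7 were lower (13.2%, background 13.5%). Against oligodendrocytes, 7 of 53 were higher in neurons (13.2%, background 37.2%) and 1 was lower (1.89%, background 10.5%). The median log2 ratio of neurons to microglia was -0.03 for the Zfp9 genes and 0.85 for all genes, and to oligodendrocytes 0.59 and 0.63.

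Of the 10 genes, the 5 with the highest ratios of neurons to microglia were *Zfp941*, *Zfp949*, *Zfp982*, *Zfp948* and *Zfp995*. *Zfp941* stood at 4.71 to 8.14 RPKM in neurons and at 0.369 to 0.725 RPKM in oligodendrocytes. In microglia it was listed at 0 in 4 pools and at 0.00598 and 0.198 RPKM in the other two. The log2 ratio of neurons to microglia was 5.67 ± 0.76 (SD, n = 6), a size limited by the added 0.1, and to oligodendrocytes 3.29 ± 0.11. *Zfp982* was at 0.475 to 0.963 RPKM in neurons and at most 0.0646 RPKM in microglia. *Zfp949* and *Zfp948* met the rule against microglia alone. *Zfp949* was also lower in oligodendrocytes than in neurons in 6 of 6 pools, but short of 2-fold (log2 ratio 0.36 ± 0.23, SD, n = 6). *Zfp948* was at 5.54 to 10.7 RPKM in neurons, 5.03 to 10.9 RPKM in oligodendrocytes and 0.311 to 5.54 RPKM in microglia.

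The 5 genes with the lowest ratios were *Zfp992*, *Zfp993*, *Zfp991*, *Zfp953* and *Zfp984*. The neighbours *Zfp993*, *Zfp991* and *Zfp992* of the chromosome 4 group were 3 of the 5 highest Zfp9 genes of microglia. *Zfp993* was at 21.9 and 26.3 RPKM in microglia of the 96-well pools labelled WT and Ehmt1Δ/+, and at 10.3, 23.6, 5.27 and 24.2 RPKM in the 384-well pools in the order given above. In neurons it was at 0.566 to 1.61 RPKM and in oligodendrocytes at 0.0382 to 1.08 RPKM, so microglia did not overlap with either of the other labels. The log2 ratio of neurons to microglia was -3.84 ± 0.73 (SD, n = 6) for *Zfp993*, -4.05 ± 0.67 for *Zfp992* and -3.52 ± 0.50 for *Zfp991*. In the 96-well plates, after thinning, *Zfp993* was above 0 in 91.7% and 99.6% of microglia, in 50.3% and 51.1% of neurons and in 14.9% and 20.7% of oligodendrocytes. The unit printed above is shared by *Zfp993* and *Zfp991* and differs by 1 base in *Zfp992*. In all, 5.43%, 9.46% and 7.79% of the values of *Zfp993*, *Zfp991* and *Zfp992* were whole, and with whole values only none of the 3 met the rule. *Zfp953* on chromosome 13 (67339306 to 67360605) was lower in neurons than in both glia labels, at 0.0955 to 0.413 RPKM in neurons, 0.944 to 4.94 RPKM in microglia and 0.279 to 2.90 RPKM in oligodendrocytes, and it met the rule with whole values only as well.

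*Zfp941*, *Zfp995* and *Zfp938* were higher in neurons than in both glia labels by the rule. Against microglia, *Zfp995* and *Zfp938* did not meet it with a pseudocount of 1 or in the 96-well pools alone. *Zfp938* also missed it against microglia when median centred and with reads summed over the pool. *Zfp995* was at 1.22 to 3.57 RPKM in neurons, 0.0323 to 2.14 RPKM in microglia and at most 0.987 RPKM in oligodendrocytes. *Zfp975*, *Zfp938* and *Zfp993* followed in the order of ratios of neurons to oligodendrocytes, with log2 ratios of 1.74 ± 0.70, 1.53 ± 0.40 and 1.37 ± 1.07 (SD, n = 6). Against oligodendrocytes, *Zfp975* and *Zfp993* did not meet the rule with a pseudocount of 1, when median centred or with whole values only. *Zfp938* did not meet it when median centred.

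**Figure D3:**
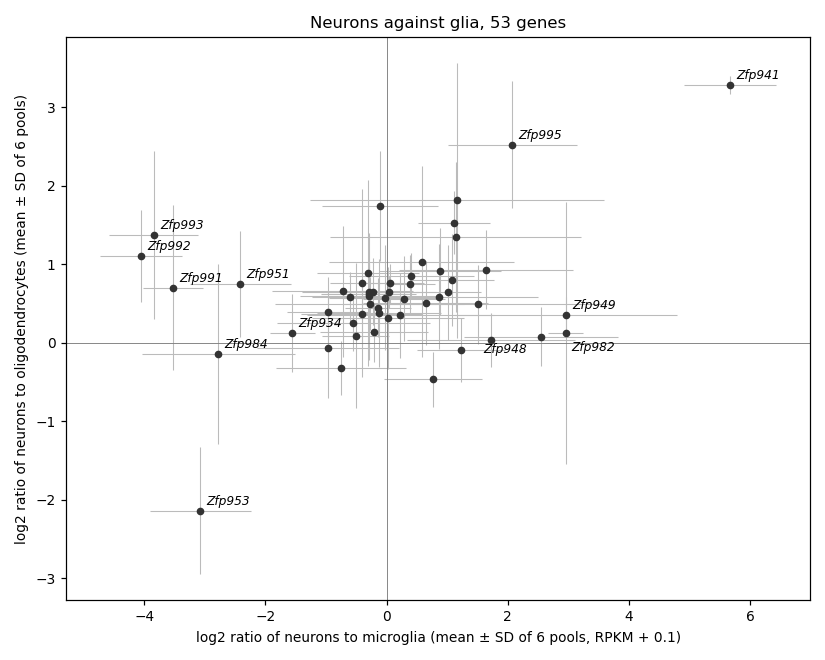
Mean log2 ratio of neurons to microglia (horizontal) and to oligodendrocytes (vertical) in RPKM + 0.1, with bars for the SD of 6 pools, 1 point for each of 53 genes. *Zfp941* stands apart at the upper right (5.67 and 3.29), *Zfp991*, *Zfp992* and *Zfp993* lie at the left, and *Zfp953* at the lower left (-3.07 and -2.14).

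The next question was whether the levels differ with the *Ehmt1* genotype. *Ehmt1* itself was at 18.7 and 31.2 RPKM in neurons of the 96-well pools labelled WT and Ehmt1Δ/+, at 19.5 and 31.7 RPKM in the 384-well pools, and at 20.7 and 33.9 RPKM in the pools labelled iTg and Ehmt1Δ/+; iTg. The gene-level value is thus higher in every pool labelled Ehmt1Δ/+; it does not read the deleted part alone, and directions below rest on the labels. *Ehmt2* was at 26.6 and 25.5 RPKM in the 96-well and at 71.4 and 66.2 RPKM in the 384-well neurons labelled WT and Ehmt1Δ/+. Pools labelled Ehmt1Δ/+ were compared with WT by limma on log2(mean RPKM + 0.1) with the plate format as a block, 4 pools and 1 residual degree of freedom. In the 384-well plates, WT nuclei had a plate code of their own and the other 3 pools shared another, so plate code and genotype cannot be told apart there in any comparison with WT. In neurons, 52 of the 64 genes were tested and none had an adjusted p (Benjamini-Hochberg) under 0.05. The background was 0% of 23853 genes; at an unadjusted p under 0.05 there were 10 of 52 (19.2%) against 10.2% of all genes, and these 10 include copies that share reads. In microglia 44 and in oligodendrocytes 35 of the 64 were tested, with 0 called among them and among all genes, and 0 at an unadjusted p under 0.05, against 1.93% and 4.72% of all genes.

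As a description, genes at least 1.5-fold apart in the same direction in both formats were counted. In neurons 1 of 52 Zfp9 genes was lower in the pools labelled Ehmt1Δ/+ (1.92%, background 1.02%) and 0 were higher (background 0.39%). In microglia 1 of 44 was lower (background 6.19%) and 3 were higher (6.82%, background 5.47%), and in oligodendrocytes 1 of 35 was lower (2.86%, background 3.65%) and 0 were higher (background 2.03%). With 1 to 3 genes each, these shares do not stand apart from the background. The median log2 ratio in neurons for the 52 genes was -0.04 (96-well) and -0.02 (384-well), and -0.03 in both for all genes tested.

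The 1 gene in neurons was *Zfp951*, a KRAB zinc finger gene that the study had listed for these nuclei, so its direction is not independent evidence. It was at 2.05 and 0.369 RPKM in neurons of the 96-well pools labelled WT and Ehmt1Δ/+, at 0.452 and 0.0974 RPKM in the 384-well pools, and at 0.739 and 0.186 RPKM in the pools labelled iTg and Ehmt1Δ/+; iTg. The value of each pool labelled Ehmt1Δ/+ is the lower of its pair, and the ranges of both genotypes over all 6 pools do not overlap. Being lower in all 3 pairs was common: it held for 6 of 52 Zfp9 genes and 3320 of all 23853 genes tested in neurons. How many of all genes have ranges that do not overlap was not counted. The log2 ratios were -2.19, -1.48 and -1.55 for the 3 pairs. In the fit over 4 pools the ratio was -1.84 with a standard error of 0.21 (limma, p = 0.00164, adjusted p = 0.461), and with a pseudocount of 1 in place of 0.1 it no longer was 1.5-fold in both formats.

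At least 1 *Zfp951* read was found in 51% and 14.3% of the neurons of the 96-well pools labelled WT and Ehmt1Δ/+. In the 384-well pools the shares were 21.8% (62 neurons) and 7.19% (22 neurons), and in the iTg pair 34.5% (95 neurons) and 6.79% (19 neurons). At least 5 reads were found in 63 and 6, 16 and 1, and 32 and 3 neurons of the 3 pairs. Fewer neurons with at least 1 read thus go along with the lower means, though this share also depends on the mean and is not a separate result. With fractions of reads included, the shares above 0 lay closer. By plate code of the 96-well plates they were 68.3% to 88.5% for WT and 63.3% to 71.8% for Ehmt1Δ/+. They were 41.4% and 25.2% in the 384-well pools, and 48.4% and 35.4% in the iTg pair. In the 96-well plates, the mean was 1.81 to 2.67 RPKM in each of 4 plate codes labelled WT and 0.286 to 0.443 RPKM in each of 4 labelled Ehmt1Δ/+; 3 of these codes occur under both labels. The 384-well pools allow no such comparison, since the labels WT and Ehmt1Δ/+ share no plate code there. *Zfp951* was lower in both classes: 1.87 and 0.386 RPKM in excitatory and 2.60 and 0.295 RPKM in inhibitory neurons of the 96-well pools, 0.452 and 0.106 RPKM and 0.462 and 0.0590 RPKM in the 384-well pools. With whole values only, it was at 0.369 and 0.0457 RPKM in the 96-well and 0.168 and 0.0173 RPKM in the 384-well neurons.

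In glia the pairs differed. In microglia, *Zfp951* was at 8.41 and 3.82 RPKM in the 96-well and at 2.92 and 0.617 RPKM in the 384-well pools labelled WT and Ehmt1Δ/+, but at 2.18 and 3.58 RPKM in the iTg pair, and only 16 to 23 microglia of each 384-well pool stand behind these values. The log2 ratio over 4 pools was -1.60 with a standard error of 0.53 (limma, adjusted p = 0.920). In oligodendrocytes it was at 1.12 and 0.283 RPKM, 0.186 and 0.0371 RPKM, and 0.121 and 0.190 RPKM in the 3 pairs, and it was too rarely detected to be tested there. Whether the genotype ratio differs between neurons and glia was not tested.

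**Figure D4:**
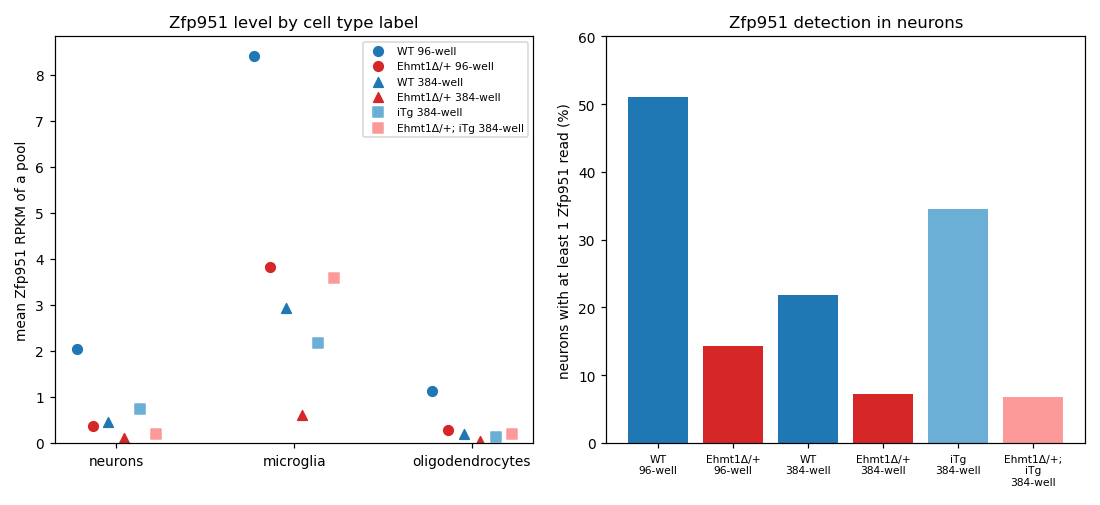
Left, mean *Zfp951* RPKM of each of 6 pools in neurons, microglia and oligodendrocytes; right, share of neurons (%) with at least 1 *Zfp951* read by pool, as bars from 0. In neurons each pool labelled Ehmt1Δ/+ lies under its partner (0.369 against 2.05, 0.0974 against 0.452 and 0.186 against 0.739 RPKM), with 6.79% to 14.3% of neurons holding a read against 21.8% to 51%.

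After *Zfp951*, the lowest genes in neurons by the smaller of both ratios were *Zfp934*, *Zfp937*, *Zfp969* and *Zfp966*. *Zfp934*, a KRAB zinc finger gene of chromosome 13, was at 1.53 and 1.0 RPKM in the 96-well and 0.528 and 0.313 RPKM in the 384-well pools labelled WT and Ehmt1Δ/+ (log2 ratio -0.59, standard error 0.10, limma adjusted p = 0.461). *Zfp937* was at 2.53 and 1.63 RPKM and at 0.943 and 0.661 RPKM. In the iTg pair these genes were level, at 0.718 and 0.710 RPKM for *Zfp934* and at 1.06 and 1.07 RPKM for *Zfp937*. Inhibitory neurons were fewer in the pools labelled Ehmt1Δ/+, as given above, and with excitatory neurons alone, *Zfp934* stayed at a log2 ratio of -0.62.

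*Zfp969* and *Zfp966* belong to the chromosome 2 copies. The 4 genes that share the identical unit above had log2 ratios of -0.33 to -0.40 in the 96-well and -0.40 to -0.43 in the 384-well neurons (limma adjusted p = 0.468 to 0.471), and 0.18 to 0.28 in the iTg pair. As they share reads, they are near to 1 measurement and not 4. Over the whole chromosome 2 group, 7 of 10 genes were lower in both formats and 1 was higher (*Zfp971*, 5.35 and 6.88 RPKM in the 96-well and 2.99 and 3.03 RPKM in the 384-well neurons). The 7 include the copies that share reads, so they are not 7 separate measurements. By the same count without a fold threshold, 8355 of all 23853 genes tested were lower in both formats and 5629 were higher. The highest by the same rule were *Zfp993* (log2 ratio 0.43), *Zfp992* (0.40), *Zfp945* (0.30), *Zfp950* (0.17) and *Zfp930* (0.12), with limma adjusted p of 0.479 to 0.731.

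**Figure D5:**
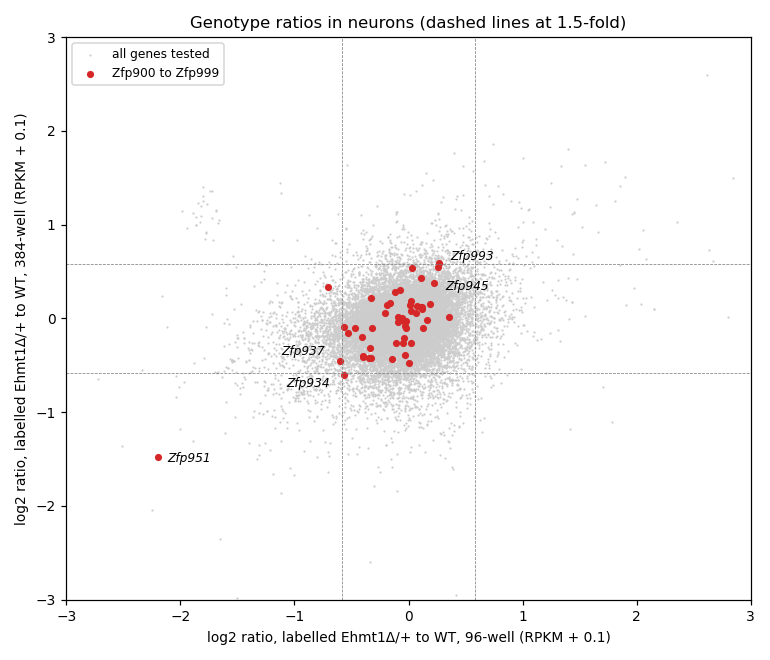
Log2 ratio of pools labelled Ehmt1Δ/+ to WT in neurons (RPKM + 0.1), 96-well plates on the horizontal and 384-well plates on the vertical axis; grey points are the 23853 genes tested, as far as they lie within the axes, red points 52 Zfp9 genes, and dashed lines mark 1.5-fold. *Zfp951* (-2.19 and -1.48) is the red point past the lines in the lower left, and the other red points lie within or near the dashed lines.

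In microglia, the 3 genes at least 1.5-fold higher in both formats were *Zfp946*, *Zfp984* and *Zfp937*. *Zfp946* was at 1.61 and 3.46 RPKM in the 96-well and 0.345 and 1.16 RPKM in the 384-well pools labelled WT and Ehmt1Δ/+, and listed at 0 and at 0.323 RPKM in the iTg pair. *Zfp984* was at 4.82 and 8.34 RPKM, 0.430 and 3.93 RPKM, and 1.85 and 4.82 RPKM in the 3 pairs. *Zfp937* was at 2.93 and 4.47 RPKM and at 1.12 and 2.84 RPKM, but at 2.51 and 2.01 RPKM in the iTg pair. Limma gave an adjusted p of 0.920 for each. In these microglia the summed neuron markers were at 64 and 14.6 RPKM in the 96-well and at 6.08 and 4.31 RPKM in the 384-well pools labelled WT and Ehmt1Δ/+. Lower in microglia after *Zfp951* were *Zfp935*, *Zfp968*, *Zfp967* and *Zfp950*, whose log2 ratios ran from -0.25 to -0.43 in the 96-well plates and from -0.70 to -4.10 in the 384-well plates, and higher were also *Zfp945* and *Zfp976*, at 0.68 and 0.38 in the 96-well plates.

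In oligodendrocytes, *Zfp935* was the gene at least 1.5-fold lower in both formats, at 2.80 and 1.54 RPKM in the 96-well, 0.735 and 0.433 RPKM in the 384-well and 1.31 and 0.944 RPKM in the iTg pair (log2 ratio -0.74, limma adjusted p = 0.870). In neurons it was at 2.45 and 1.82 RPKM, 0.985 and 0.844 RPKM, and 1.27 and 1.22 RPKM. The summed neuron markers of oligodendrocytes were also lower in the pools labelled Ehmt1Δ/+, at 52.8 and 12.6 RPKM in the 96-well and 6.55 and 2.56 RPKM in the 384-well pools. With reads summed over the pool, *Zfp935* no longer met 1.5-fold in both formats. Next lowest were *Zfp970*, *Zfp967*, *Zfp974* and *Zfp944* (log2 ratios -0.43 to -0.70 over both formats), and highest were *Zfp943*, *Zfp945*, *Zfp950*, *Zfp956* and *Zfp959* (0.17 to 1.19). *Zfp964*, which the study also lists, was at 1.90 and 1.93 RPKM in the 96-well and 0.735 and 0.848 RPKM in the 384-well neurons.

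Of the 14 genes listed here as partners of KAP1, 13 were tested in neurons, and none was at least 1.5-fold apart in both formats or passed limma. *Chaf1a*, a chromatin assembly factor subunit, was at 1.45 and 0.400 RPKM in the 96-well and 1.93 and 1.25 RPKM in the 384-well oligodendrocytes labelled WT and Ehmt1Δ/+, and at 1.26 and 2.52 RPKM in the iTg pair. *Cbx5*, which encodes a heterochromatin protein 1, was at 11.9 and 6.33 RPKM in the 96-well and 0.865 and 0.433 RPKM in the 384-well microglia. Of 7 H3K9 methyltransferase genes and partners, *Ehmt1* alone was 1.5-fold apart in both formats in neurons. None of these passed limma.

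The transgene contrasts have 1 pool a group and no test, and share pools: Ehmt1Δ/+; iTg enters both the second and the third. Of 52 Zfp9 genes tested in neurons, 4 were at least 1.5-fold higher in iTg than in WT of the 384-well plates (7.69%, background 1.06%) and 0 were lower (background 7.47%). With a pseudocount of 1 there were 0, and plate code and genotype cannot be told apart here either. The 4 were *Zfp951* (0.452 and 0.739 RPKM), *Zfp972* (0.684 and 1.13 RPKM), *Zfp976* (0.770 and 1.30 RPKM) and *Zfp948* (5.54 and 8.70 RPKM). In Ehmt1Δ/+; iTg against Ehmt1Δ/+, 15 of 52 were higher (28.8%, background 18.3%) and 0 lower (background 3.17%). In Ehmt1Δ/+; iTg against iTg, 9 of 52 were higher (17.3%, background 24.8%) and 1 was lower, *Zfp951* (1.92%, background 3.17%).

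The pool labelled Ehmt1Δ/+; iTg stands apart over all genes, whose median log2 ratio was 0.15 to the pool labelled Ehmt1Δ/+ and 0.21 to iTg. The medians of the Zfp9 genes were 0.43 and 0.30. Relative to the median of all genes, the counts of higher genes were 7 in place of 15 and 3 in place of 9. The centred counts were not made over all genes, so the background shares given above do not apply to them. The widest were *Zfp975*, at 0.991 RPKM in Ehmt1Δ/+ and 2.44 RPKM in Ehmt1Δ/+; iTg, *Zfp934* at 0.313 and 0.710 RPKM, and *Zfp943* at 2.18 and 3.99 RPKM. *Zfp950*, one of the highest genes of neurons, was at 7.08 and 11.4 RPKM and at 5.87 RPKM in iTg. All contrasts are of RNA in pools, in which fewer neurons that hold a gene and less RNA in each give the same mean.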

How the data were processed

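Nuclei of 3 mice a pool were sorted into 96- or 384-well plates and sequenced by RamDA-seq. The authors trimmed reads with Fastq-mcf, mapped them to mm10 with HISAT2 2.0.4, counted reads per gene with featureCounts (Subread 1.5.0, versions per the submitters' processing notes) and a Gencode annotation, removed poor nuclei, set cell types by clusters and markers, and deposited RPKM values for 52636 genes, 1 table a plate format. Each of the 2207 columns matched 1 sample by name. Symbols were matched by Ensembl identifier (52403 genes), and 57 of the 64 Zfp9 genes had the same version in GENCODE M21; for 7 the gene length was taken from the steps of the values. The authors' deposited RPKM hold fractions of reads, so no count test was used.

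Mean RPKM was taken for each pool and cell type. Genes for which, in each format, 10% or more of WT or of Ehmt1Δ/+ nuclei were above 0 were tested with limma 3.58.1 (R 4.3.3) on log2(RPKM + 0.1), which understates the ratios of low genes, with Benjamini-Hochberg adjustment. Read totals were recovered from the commonest step of each nucleus. Thinning took the percentile 10 of read totals per format, counted a fraction as 1 read and left out shallower nuclei (27 and 43 neurons in the 96-well pools labelled WT and Ehmt1Δ/+, and 9 to 16 microglia of each 384-well pool). Python 3.11.15, numpy 2.4.6 and pandas 2.3.3 were used. Read totals and limma were tested on simulated data. Pools are not mice, and p-values do not measure the spread between mice. With format as a block, they rest on how far the ratio differs between the formats, with a variance moderated over all genes.

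The 64 genes, the gene lists and the tests were chosen with earlier results of these data known. Genes named are the 10 highest in neurons, the 5 highest and 5 lowest of each cell type among genes going the same way in both formats, the 5 highest and 5 lowest called ratios of neurons to glia, the 5 with the lowest share of whole values, *Zfp951*, *Zfp935*, *Zfp964* and *Zfp946*, which the study lists, and list genes past 1.5-fold. *Zfp971*, *Zfp972*, *Zfp975*, *Zfp976* and others named outside this rule were chosen after their values were seen.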

Additional observations from a re-analysis of the deposited data

Results flagged for a closer look

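A pair of genes differed in the sign of the log2 ratio between cell types. The difference itself was not tested, and how many of all genes differ in this way was not counted. *Zfp937* was higher in microglia labelled Ehmt1Δ/+ in both plate formats, with a log2 ratio of 0.93 over 4 pools, and lower in both formats in neurons (-0.53) and in oligodendrocytes (-0.48). In the iTg pair of microglia, *Zfp937* went the other way, as given above. *Zfp946* was higher in microglia in both formats (1.28), with ratios of -0.03 in neurons and -0.17 in oligodendrocytes, both lower in both formats. The ratio in neurons is near 0, so its sign says little. Each microglia value of the 384-well plates rests on 16 or 19 nuclei at a median of 42058 and 39940 reads. In the 96-well microglia, the summed neuron markers were at 64 RPKM in the pool labelled WT and 14.6 RPKM in that labelled Ehmt1Δ/+.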

How the results depend on the processing

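No paired analysis was possible because replicate numbers in the labels only name nuclei of a pool and pair no samples. Pools were matched by plate format as the block, and the fit of 6 pools matched them by format and transgene. Limma called 0 Zfp9 genes in each cell type in the reported fit and in every alternative run (pseudocounts of 0.01 and 1, no filter, trend, reads summed over the pool, median centring, 6 pools in 3 pairs and, in neurons, excitatory neurons or whole reads only), with 5 to 12 genes in neurons at an unadjusted p under 0.05 outside limma with trend and 6 pools, which had 4 each. In glia these were 0 to 2 genes in microglia and 0 to 4 in oligodendrocytes, where limma with trend called 2 genes, neither a Zfp9 gene. *Zfp951* was the 1 gene at least 1.5-fold lower in both formats in neurons; with a pseudocount of 0.01 there were 2 (also *Zfp934*), and with 1 there were 0. Whole reads only gave 1 higher gene (*Zfp932*). From 1 format alone, leaving out either pool of the other, 2 to 3 were lower and 0 to 1 higher in neurons, 4 to 16 lower and 6 to 20 higher in microglia, and 1 to 11 lower and 2 to 7 higher in oligodendrocytes. The 1.5-fold counts of these alternatives were not made over all genes, so they have no background and are not read as an effect. The 384-well microglia labelled WT and Ehmt1Δ/+ were 16 and 19 nuclei. In microglia 2 were lower without a filter and 0 in all 3 pairs. In oligodendrocytes 0 were lower with a pseudocount of 1, with summed reads and in all 3 pairs, and 5 lower and 1 higher without a filter. Over 6 pools, *Zfp974* and *Zfp956* turned sign in oligodendrocytes, to log2 ratios of 0.12 and -0.023.

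In the transgene contrasts, genes higher in iTg than WT were 7 with a pseudocount of 0.01 (1 lower), 0 with 1, 2 with summed reads and 7 when median centred. In Ehmt1Δ/+; iTg against Ehmt1Δ/+ they were 5 with a pseudocount of 1 and 7 when centred. Against iTg they were 14 with a pseudocount of 0.01, 5 with 1 (0 lower) and 3 when centred (2 lower). Centring was added there after the data were seen. Counts over all genes were made for the reported setting alone, in these contrasts and for neurons against glia. Genes higher in neurons than microglia were 3 with a pseudocount of 1, 5 when centred and 6 with whole values only, and lower ones 12 in the 96-well pools, 12 when centred and 2 with whole values only. Against oligodendrocytes 3 were higher and 0 lower with a pseudocount of 1, 2 and 2 when centred, and 4 higher with whole values only. Genes above 0 in at least 50% of neurons were 17 after thinning. Within 0.05 read, 40.01% and 50.3% of the Zfp9 values were whole in the 96- and 384-well plates. The neuron classes gave 0 genes under both rules.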
